A study of Mus musculus with 24 samples.

Results

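The genes described here are 218 genes of mouse chromosome 12, compared between a macrophage line with an inducible Nur77 construct and a control line with an inducible GFP construct. They were chosen by position and level: a gene had to lie on chromosome 12 of the GRCm38 assembly and to average at least 30 CPM (counts scaled to 1e6 per library) over the 24 libraries. A gene with several transcripts was represented by the one with the highest mean. Of 25160 genes in the series, 851 lay on this chromosome and 237 of those reached 30 CPM. The rule left out 19 of the 237 by symbol (Dlst, Hsp90aa1, Jdp2, Nfkbia, Npc2, Odc1, Rrm2, Rsad2, Sel1l, Tnfaip2, Traf3 and the genes whose symbols start with Psm, Rps, Rpl or Slc). The members are 217 protein-coding genes and 1 long non-coding RNA gene, and all 218 passed the filter on low counts. Their levels chose them, and the chromosome was picked with a lower level in the Nur77 line already known. Differences between the lines are therefore given as a description, with no test of the group.

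Genes that share a chromosome need not share a function, and these 218 take part in signalling, transcription, RNA processing, vesicle traffic, lysosomal breakdown and metabolism. What they share is their chromosome. In a cell that gains or loses a chromosome or a stretch of one, transcripts of the genes along it tend to shift together by a similar factor, while feedback and gene-specific control move single genes away from that shift. Transformed lines commonly carry such changes, and derivatives grown from different cells of a line can differ in them. DNA was not analysed here, so the number of copies of chromosome 12 in either line was not tested.

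Both lines are stable derivatives of RAW 264.7, a transformed mouse macrophage line, and all 24 libraries come from cells treated with doxycycline (50 ng/ml for 18 h) to induce the construct. The genotype of 12 libraries was Nur77, the nuclear receptor encoded by Nr4a1, and that of 12 was GFP, a fluorescent protein that serves as control. Cells of each line received 500 ng/ml lipopolysaccharide (LPS, a component of the bacterial outer membrane sensed by macrophages) for 0, 1 or 5 h, with 4 libraries in each of the 6 groups. Each construct was present in 1 line, so a difference between the lines cannot be told apart from a difference between derivatives. The labels do not say that replicates were separate cultures, and p-values then measure the spread between these libraries, which may be technical. RNA was measured in bulk, where fewer cells of a type and less RNA per cell cannot be told apart.

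Total counts per library ran from 8134143 to 29275847, and 12198 genes were tested. Levels are CPM after library composition was adjusted with TMM, the trimmed mean of M-values. Before LPS, Nr4a1 had 3.03 ± 0.39 CPM in GFP libraries against 3.27 ± 0.403 CPM in Nur77 libraries (SD, n = 4). At 1 h it had 61.7 ± 6.64 CPM in GFP libraries and 32.9 ± 15.8 CPM in Nur77 libraries, where replicate 2 had 9.29 CPM, so at 1 h its counts were lower in the libraries labelled Nur77. At 5 h the order was the opposite at low levels, with 2.08 to 3.13 CPM in GFP libraries and 4.51 to 5.2 CPM in Nur77 libraries. The sources used here do not give the sequence of the construct, and these values do not check the labels. Of 10 macrophage markers 8 were present in quantity, while Cd163 had no counts and Mertk 29 counts over all libraries. Their summed level was 9960 to 11900 CPM in GFP libraries and 5260 to 7460 CPM in Nur77 libraries over the 3 times, without overlap, and the part of this difference in the results was not tested. The sums were at most 4.37 CPM for the markers of neutrophils, 0.776 CPM for fibroblasts, 0.571 CPM for lymphocytes and 0 for epithelium. Replicate 2 of the Nur77 line at 1 h stood apart: its mean correlation with the other libraries of its group was 0.981, and for all other libraries it was 0.988 or higher (across 12198 genes, log2 CPM). For genes described at 1 h, values without it are given where it changes a call or moves them by over 1.5 times.

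At each of the 3 times most of the 218 genes were lower in the Nur77 line. The median difference was similar at the 3 times, while single genes varied around it. The median log2 fold change between the lines (Nur77 against GFP) was -0.404 at 0 h, a level of 75.6% of that in the GFP line. It was -0.355 at 1 h (78.2%) and -0.419 at 5 h (74.8%). The quartiles of the genes lay at -0.578 and -0.247 at 0 h, at -0.587 and -0.139 at 1 h and at -0.622 and -0.197 at 5 h. Log2 fold changes were below 0 for 203, 187 and 199 of the 218 genes. Over all 12198 genes tested the medians were 0.0192, 0.00687 and 0.00173.

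The 4 libraries of a group gave nearly the same shift. Against the mean of the GFP libraries of the same time, the median log2 difference over the 218 genes was -0.389, -0.422, -0.397 and -0.394 in the Nur77 libraries at 0 h. At 1 h it was -0.452, -0.333, -0.316 and -0.381, with replicate 2 at -0.333. At 5 h it was -0.402, -0.427, -0.434 and -0.376. The 12 GFP libraries lay between -0.0267 and 0.0394 on this scale, which centres them near 0 since their own mean is the reference. No library of one line reached the range of the other. As a share of all counts the 218 genes took 3.31 ± 0.03% in the GFP line and 2.53 ± 0.0189% in the Nur77 line at 0 h (SD, n = 4). The shares were 3.28 ± 0.0712% and 2.5 ± 0.0589% at 1 h, and 3.09 ± 0.034% and 2.39 ± 0.0403% at 5 h.

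**Figure D1:**
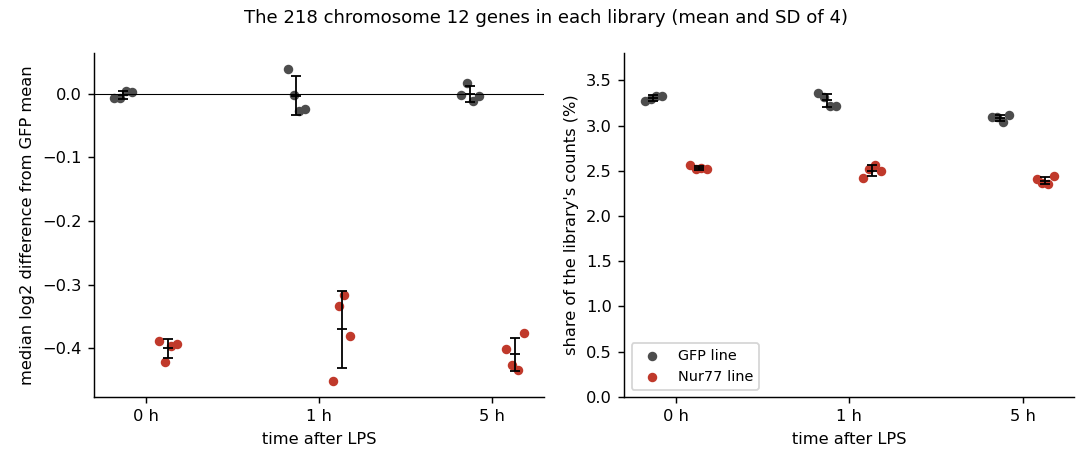
Left, median log2 difference of the 218 chromosome 12 genes in each library from the mean of the GFP libraries at the same time; right, their share of all counts in percent. Points are libraries, bars are the mean and SD of 4. At each time after LPS all 4 Nur77 libraries lie below all 4 GFP libraries in both panels.

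The threshold for a call was an adjusted p of 0.05 in edgeR's quasi-likelihood test, with adjustment over all 12198 genes. At 0 h, 164 of the 218 genes were called lower in the Nur77 line (75.2%) and 4 higher, where 19.7% of all genes tested were called lower and 20.3% higher. At 1 h 144 were called lower (66.1%, against 24.8% of all genes) and 6 higher (26.4% of all genes). At 5 h 161 were called lower (73.9%, against 24.4%) and 5 higher (22.0% of all genes). Every Nur77 library lay below every GFP library for 164 genes at 0 h, 126 at 1 h and 166 at 5 h, where 20.3%, 18.3% and 25.9% of all genes did so. Every Nur77 library lay above every GFP library for 4, 3 and 7 genes, against 20.9%, 16.8% and 25.5% of all genes. These counts are read as no more than a description, since the chromosome was chosen for this difference. At all 3 times 129 genes were called lower (59.2%, against 13.2% of all genes) and 1 was called higher (against 10.7% of all genes). Of the 218 genes 24 were called at no time, against 30.3% of all genes.

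Akt1 shows the common size of the difference. It encodes a kinase that signals cell survival and growth downstream of phosphoinositide 3-kinase, and lies at 112653821 to 112674884 of chromosome 12 (GRCm38). In the GFP line its level at 0 h was 474, 457, 454 and 410 CPM, and in the Nur77 line 321, 337, 339 and 317 CPM. The groups did not overlap at 0 h, nor at 1 h (382 to 444 CPM in the GFP line, 275 to 283 CPM in the Nur77 line) or 5 h (373 to 389 and 294 to 316 CPM). The log2 fold changes between the lines were -0.45 (SE 0.05), -0.57 (SE 0.05) and -0.34 (SE 0.05). Tmed10, which encodes a cargo receptor of vesicles between the endoplasmic reticulum and the Golgi, was at 493, 504, 493 and 526 CPM in GFP libraries against 385, 365, 378 and 367 CPM in Nur77 libraries at 0 h. Its log2 fold changes were -0.43, -0.47 and -0.43 (SE 0.05 at each time), with no overlap of the groups at 0, 1 or 5 h.

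The other chromosomes did not show such a shift. By the same rule 5717 genes lay on them, with medians of 0.0476, 0.0893 and 0.0725 at 0, 1 and 5 h. Taken one at a time, the medians of the 19 other chromosomes were from 0.0131 to 0.104 at 0 h, from 0.0119 to 0.208 at 1 h and from 0.0219 to 0.141 at 5 h. The share of genes called lower was 10.5 to 20.9%, 12.4 to 24.8% and 15.1 to 26.4% on those chromosomes. TMM centres the data on most genes, so these medians are relative to the other genes and not to an absolute amount of RNA. With TMM factors computed from genes outside chromosome 12 no count of called genes moved by over 1.5 times.

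**Figure D2:**
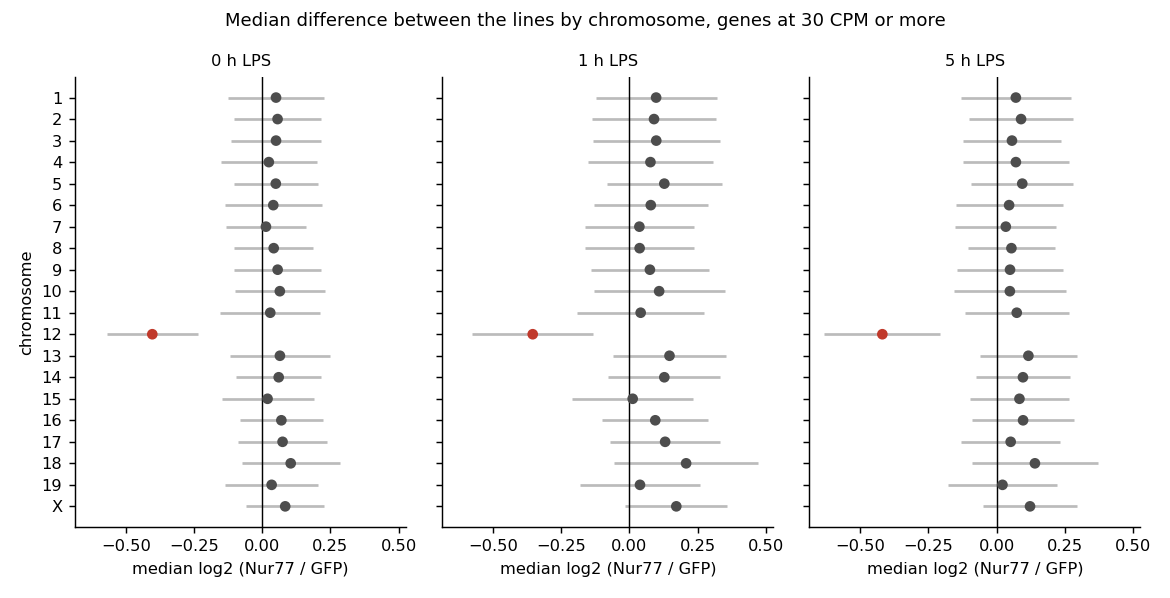
Median log2 fold change between the lines (Nur77 against GFP) on each chromosome, among genes at 30 CPM or more, at 0, 1 and 5 h of LPS. Bars are plus and minus the median absolute deviation over genes, not an error of the median. Chromosome 12 lies at -0.404, -0.355 and -0.419, and the 19 others lie between 0.0119 and 0.208.

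The spread of the 218 genes around their median was like that of other genes around theirs. The median absolute deviation (the median distance from the median, on the log2 scale) was 0.166 at 0 h, 0.222 at 1 h and 0.213 at 5 h. For the 5717 genes of the other chromosomes it was 0.164, 0.221 and 0.189. Within 0.25 of the chromosome 12 median lay 142, 123 and 124 of the 218 genes, and within 0.5 lay 192, 186 and 188. More than 1 from the median lay 3, 3 and 8 genes. Errors of single genes do not cover this spread: the 95% interval of the gene's own log2 fold change held the median for 110 genes at 0 h, 77 at 1 h and 96 at 5 h.

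The size of a gene's difference at one time went with its size at the others. Across the 218 genes, the log2 fold change between the lines at 0 h had a Pearson correlation of 0.821 with that at 1 h and 0.781 with that at 5 h, and 1 h with 5 h 0.825. These comparisons share no libraries, but genes are not independent replicates. On the other chromosomes the values were 0.840, 0.812 and 0.847. Rank correlations (Spearman) had the opposite order: 0.781, 0.756 and 0.817 for the 218 genes against 0.724, 0.692 and 0.766 there. The mean of the 3 log2 fold changes had a Pearson correlation of 0.0853 with the log2 mean level and 0.0971 with the log2 gene length. In 3 groups of about equal size, formed by mean level, from low to high, the median at 0 h was -0.404, -0.438 and -0.384. Promoter windows in the RefSeq table (GRCm38.p6) were found for 194 of the 218 genes, and the correlation of the difference with the number of CpG dinucleotides in them was 0.0677.

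Along the chromosome the members ran from Rab10 to Cdca7l. Rab10, the first (3247428 to 3309969), encodes a small GTPase of vesicle transport. It had log2 fold changes of -0.34, -0.13 and -0.17 and was called lower only at 0 h. Cdca7l, the last (117843475 to 117878712), encodes a MYC-interacting nuclear protein and had a mean log2 fold change over the 3 times of -0.57. In windows of 10 Mb, the median of the 3-time mean log2 fold change was below 0 in all 12 windows. It was lowest, at -0.525, from 40 to 50 Mb, a window of only 4 genes, and was -0.496 from 110 to 120 Mb (26 genes). From 50 to 60 Mb it was -0.231 (23 genes). The window from 10 to 20 Mb held 13 genes and had the highest median, -0.0931. There the medians at 0, 1 and 5 h were -0.155, 0.012 and 0.0246, with 6, 5 and 4 genes called lower. Genes next to each other differed by about as much as any others: the median absolute difference was 0.287 over the 217 neighbouring pairs and 0.286 over all 23653 pairs.

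**Figure D3:**
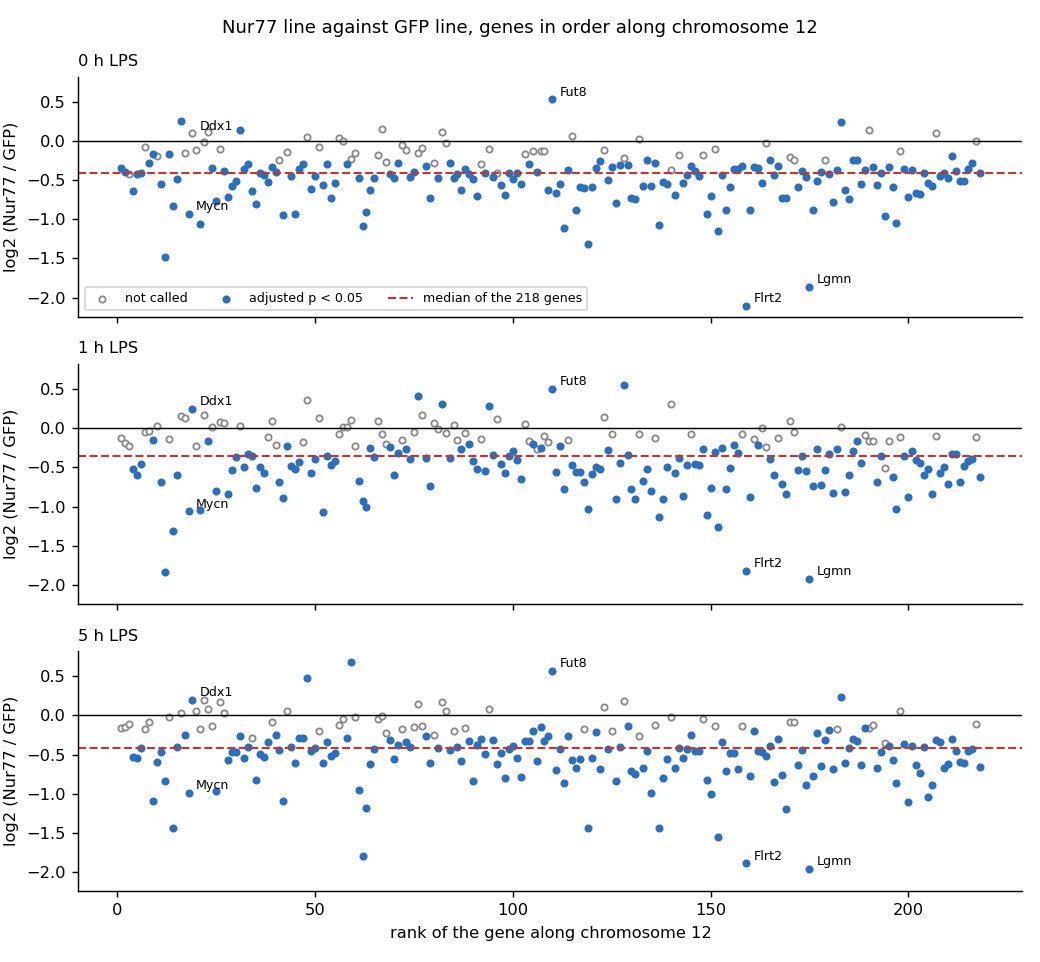
Log2 fold change between the lines for the 218 genes by rank along chromosome 12 at 0, 1 and 5 h of LPS; filled points had an adjusted p under 0.05, open points did not, and the dashed line is the median. Of the 218 genes 203, 187 and 199 lie below 0, and 142, 123 and 124 lie within 0.25 of the dashed line. The 13 genes from 10 to 20 Mb lie nearer to 0, with medians of -0.155, 0.012 and 0.0246.

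The window from 10 to 20 Mb held neighbours that differed from each other. Mycn (12936093 to 12941836), a transcription factor gene of the MYC family, was at 1140, 1050, 1130 and 1020 CPM in GFP libraries at 0 h against 591, 576, 579 and 537 CPM in Nur77 libraries. Its log2 fold changes between the lines were -0.93 (SE 0.07), -1.06 (SE 0.07) and -0.99 (SE 0.07), so its level was lower by more than the common shift at each time. Ddx1 (13219307 to 13249174), the next gene here along the chromosome, encodes an RNA helicase. It was at 319, 311, 315 and 339 CPM in GFP libraries at 0 h against 345, 339, 356 and 338 CPM in Nur77 libraries, and the groups overlapped. At 5 h it was at 372, 383, 376 and 395 CPM in GFP libraries against 453, 440, 427 and 433 CPM in Nur77 libraries, without overlap. Its log2 fold changes were 0.10, 0.25 and 0.20 (SE 0.06 at each time), and it was called higher at 1 and 5 h. The other members of this window were Gen1, Smc6, Nbas, Lpin1, Greb1, E2f6, Rock2, Pqlc3, Pdia6, Nol10 and Hpcal1. Gen1 and Smc6 overlap on the assembly, as do Adam17 and Iah1, Zbtb1 and Zbtb25, Cdca7l and Dnah11, and Rab10 and its antisense RNA, and the sources used here do not say whether counting used the strand, so such pairs may share reads.

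Flrt2 and Lgmn lay at least 1 below the median of the 218 genes at all 3 times. Flrt2 (95692006 to 95785215) encodes a leucine-rich repeat membrane protein of cell adhesion and guidance. Its level at 0 h was 192, 187, 204 and 185 CPM in GFP libraries against 50.0, 44.5, 43.3 and 41.2 CPM in Nur77 libraries (log2 fold change -2.10, SE 0.21). At 1 h it was -1.82, with Nur77 libraries at 30, 94.2, 45.4 and 40.7 CPM, where replicate 2 was the highest, and -2.26 without that library. At 5 h it was -1.89 (SE 0.21), and every GFP library (239 to 262 CPM) lay above every Nur77 library (62.2 to 76.7 CPM).

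Lgmn (102394082 to 102439728) encodes legumain, a lysosomal protease that cleaves after asparagine. It was at 1150, 1120, 1130 and 1190 CPM in GFP libraries at 0 h against 317, 309, 334 and 305 CPM in Nur77 libraries, with a log2 fold change of -1.86 (SE 0.10). At 5 h the GFP line was at 690, 713, 715 and 689 CPM and the Nur77 line at 177, 186, 188 and 171 CPM (log2 fold change -1.96, SE 0.10). The groups stood far apart at each time. At 1 h the log2 fold change was -1.92, and -1.78 without Nur77 replicate 2, which had 200 CPM where the other 3 had 316 to 328 CPM.

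Rhob, Vipas39 and Egln3 had the next lowest means over the times. Rhob, encoding an endosomal small GTPase that is induced early after many stimuli, was 1.49, 1.84 and 0.84 lower on the log2 scale at 0, 1 and 5 h, with 26.0 to 27.8 CPM in GFP libraries against 9.16 to 10.2 CPM in Nur77 libraries at 0 h. Vipas39, whose product acts with VPS33B in endosomal and lysosomal traffic, had log2 fold changes of -1.14, -1.26 and -1.56. Its levels at 5 h were 118, 124, 124 and 120 CPM in GFP libraries against 43.1, 43.5, 39.3 and 38.6 CPM in Nur77 libraries. Egln3, encoding an oxygen-sensing prolyl hydroxylase that marks hypoxia-inducible factors for breakdown, had log2 fold changes of -1.08, -0.93 and -1.79. It was at 67.9, 67.5, 78.2 and 63.2 CPM in GFP libraries at 5 h against 21.9, 18.3, 21.5 and 17.7 CPM in Nur77 libraries.

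Fut8 was the only one of the 218 genes called higher in the Nur77 line at all 3 times. It encodes the fucosyltransferase that adds core fucose to N-glycans and lies at 77237430 to 77475998. Its levels at 0 h were 54.4, 60.4, 63.1 and 53.8 CPM in GFP libraries against 80.3, 84.3, 85.5 and 85.7 CPM in Nur77 libraries. At 5 h they were 105, 117, 107 and 111 CPM and 162, 160, 163 and 169 CPM, again without overlap. The log2 fold changes were 0.54 (SE 0.06), 0.51 (SE 0.07) and 0.57 (SE 0.06), close to 1 above the median of the group.

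The remaining higher calls were made at 1 or 2 times. Gen1, a Holliday junction resolvase gene, Adam17, the gene of the protease that sheds TNF, and Syne3, encoding a nuclear envelope protein, were called higher at 0 h, by 0.26, 0.14 and 0.24 on the log2 scale. At 1 h these included Ddx1, Arid4a and the splicing genes Pnn (0.42) and Rbm25 (0.55). Without Nur77 replicate 2 Pnn was at 0.37 and no longer called. At 5 h they included Ddx1, Hdac9 and Syne3. Hdac9, a class IIa histone deacetylase gene, was at 35.3 to 37.6 CPM in GFP libraries against 47.4 to 55.6 CPM in Nur77 libraries at 5 h. Leaving out single libraries moved the number called higher at 0 h from 4 to between 1 and 4 (2 without GFP replicate 4 or without Nur77 replicate 1 or 3, and 1 without Nur77 replicate 2 or 4). At 1 h it moved from 6 to 11 without Nur77 replicate 1 and to 3 without Nur77 replicate 3.

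**Figure D4:**
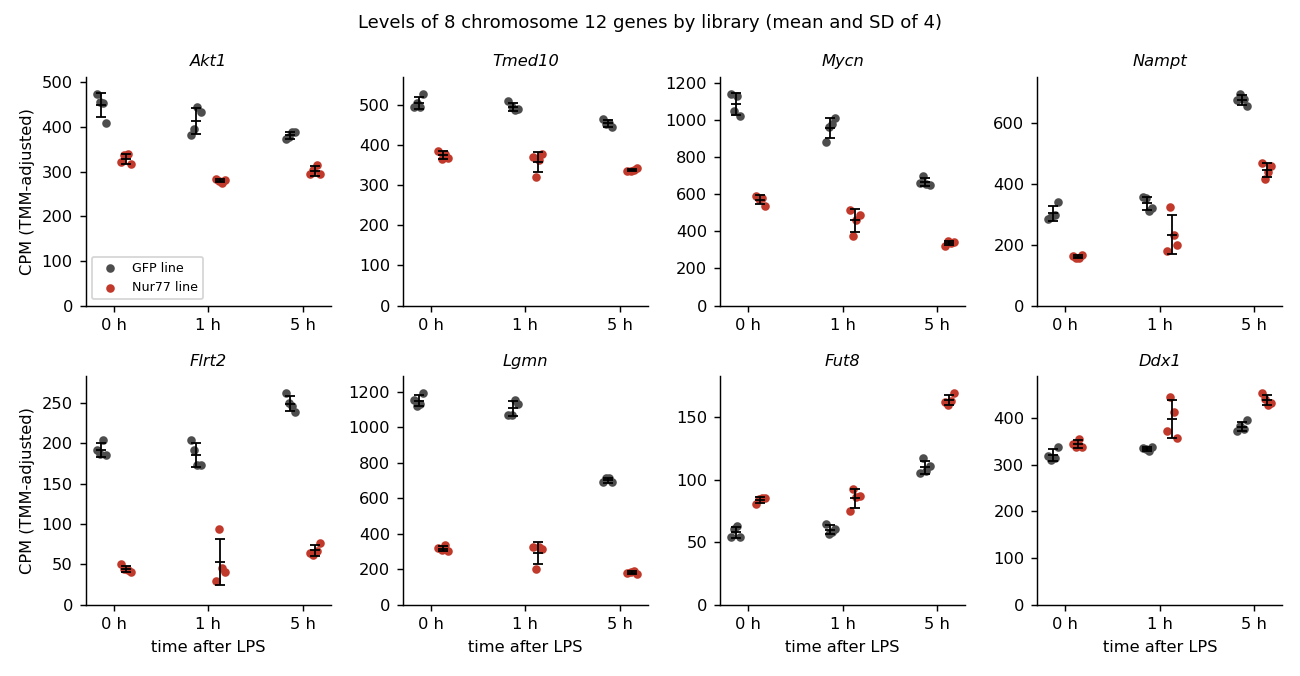
Levels in CPM (adjusted by TMM) of 8 chromosome 12 genes in each library by time after LPS; bars are the mean and SD of 4. Akt1 and Tmed10 lie near the common shift, Mycn and Nampt below it at 0 h, Flrt2 and Lgmn far below it, and Fut8 and Ddx1 at or above the level of the GFP line.

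The 24 genes called at no time came from several functions, and 3 of them were called lower at 1 h without Nur77 replicate 2: Eif5 (-0.245), 1110002L01Rik (-0.599) and Srp54c (-0.394). Scfd1, Mia2 and Trip11, whose products act in transport between the endoplasmic reticulum and the Golgi, Eif5, a translation initiation factor gene, and Pdia6, a protein disulfide isomerase gene, were among them. Eif5 had log2 fold changes of -0.13, -0.11 and 0.06, and Pdia6 of -0.10, 0.09 and 0.17 (-0.04 at 1 h without Nur77 replicate 2). Mia2 had -0.09, 0.16 and -0.13 (0.03 at 1 h without that library). The others were 1110002L01Rik, Itsn2, Nbas, Greb1, Etv1, G2e3, Heatr5a, Baz1a, Srp54b, Srp54c, Brms1l, Prpf39, Mgat2, Srsf5, Mideas, Ylpm1, Ppp4r3a, Ccdc85c and Ncapg2. A call that was missed does not show that a level was equal. Srp54b and Srp54c are near-identical copies, and counting may have split their reads.

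By function, 191 of the 218 genes fell into 11 lists, and the median was below 0 in each list at each time. The 13 genes of lysosomes and lipids had the lowest medians, -0.76, -0.774 and -0.715, with 13, 11 and 12 called lower and none higher. Beside Lgmn they held Abcd4, a cobalamin transporter gene (-1.07, -1.13 and -1.44), Galc, the galactosylceramidase gene (-0.88, -0.88 and -0.78), Sptlc2, a subunit gene of serine palmitoyltransferase (-0.88, -0.77 and -0.71), and Atp6v1d, a subunit gene of the proton pump that acidifies lysosomes (-1.11, -0.77 and -0.87). Pld4, a phospholipase D family exonuclease gene, was nearer the common shift (-0.47, -0.71 and -0.63).

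Among 15 genes of mitochondria and metabolism 11, 10 and 12 were called lower and 1 higher (Fut8) at each time, with medians of -0.574, -0.525 and -0.612. Nampt, the rate-limiting enzyme gene of NAD salvage, was at 285, 293, 298 and 341 CPM in GFP libraries against 162, 158, 156 and 166 CPM in Nur77 libraries at 0 h. Its groups did not overlap at 0 h (log2 fold change -0.93, SE 0.11), and at 1 h they did, since Nur77 replicate 2 had 324 CPM (-0.53 with it and -0.72 without it). Dld, the dihydrolipoamide dehydrogenase gene, had -0.52, -0.12 and -0.35, called at 0 and 5 h, and also at 1 h without Nur77 replicate 2 (-0.25). The 15 genes of the cytoskeleton and adhesion had medians of -0.535, -0.453 and -0.522, with 13, 9 and 12 called lower. Actn1, encoding the actin crosslinker alpha-actinin, was at 249, 234, 262 and 220 CPM in GFP libraries at 0 h against 96.8, 98.9, 101 and 91.6 CPM in Nur77 libraries. Dync1h1, the dynein heavy chain gene, varied widely within the GFP line at 0 h (629, 306, 619 and 381 CPM) and was called at 0 h and not at 1 or 5 h.

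The 26 signalling genes had medians of -0.413, -0.355 and -0.388, close to that of all 218, with 24, 21 and 21 called lower and none higher. Cdc42bpb, a kinase gene of the Cdc42 pathway, was the lowest of them (-1.04, -1.03 and -0.87). The 26 genes of vesicle traffic had medians of -0.411, -0.377 and -0.401, with 18, 16 and 16 called lower. The 18 genes of ubiquitin and chaperones had -0.414, -0.379 and -0.432, with 14, 14 and 15 called lower. The 6 genes of receptors and secreted proteins had -0.553, -0.585 and -0.476, with 5, 4 and 6 called lower.

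The lists of transcription, RNA processing, the cell cycle and translation had medians nearer to 0 than that of the 218 genes at each time, except translation at 0 h. For 34 genes of transcription and chromatin the medians were -0.34, -0.278 and -0.411, with 23, 20 and 25 called lower. Beside Mycn, Hbp1, a repressor gene of cell cycle entry, was among the lowest (-0.94, -0.89 and -1.09). Dnmt3a, a DNA methyltransferase gene, had -0.43, -0.60 and -0.55. Hif1a, the oxygen-regulated subunit gene of HIF-1, had -0.16, 0.06 and -0.33, was called lower only at 5 h, and stood at -0.10 at 1 h without Nur77 replicate 2. For 21 genes of RNA processing the medians were -0.347, -0.212 and -0.182, with 15, 11 and 10 called lower and 0, 3 and 1 higher. Papola, the poly(A) polymerase gene, was called lower at each time (-0.24, -0.28 and -0.30), and Pum2, an RNA-binding repressor gene, only at 0 h (-0.17). For 9 genes of the cell cycle and DNA repair the medians were -0.177, -0.157 and -0.303. Susd6, a p53 target gene, was called lower at each time (-0.26, -0.52 and -0.69), and Smc6, a DNA repair complex gene, only at 5 h (-0.25). For 8 translation genes the medians were -0.412, -0.18 and -0.24, with Eif2s1, the alpha subunit gene of eIF2, at -0.37, -0.15 and -0.26 (called at 0 and 5 h, and at 1 h only without Nur77 replicate 2). No test was made of a difference between lists.

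The LPS response of the 218 genes asks whether a gene at a lower level was still regulated. The rule set no threshold on this response, but the genes it left out by symbol include strong responders, among them Nfkbia (4.59 at 1 h in the GFP line and 3.30 in the Nur77 line), Rsad2 (6.60 and 4.75 at 5 h) and Tnfaip2 (3.19 and 2.81 at 5 h). The counts below are without them. In the GFP line 27 genes rose and 9 fell at 1 h, or 16.5% of them, where 17.4% of all genes tested were called (9.75% rose and 7.67% fell). At 5 h 83 rose and 70 fell, or 70.2%, against 62.6% of all genes (30.6% rose and 32.0% fell). In the Nur77 line 79 rose and 30 fell at 1 h, or 50.0%, against 44.4% of all genes (22.5% and 21.8%). At 5 h 89 rose and 72 fell, or 73.9%, against 66.7% of all genes (32.5% and 34.2%). By direction, the shares that rose and fell were 12.4% and 4.13% at 1 h and 38.1% and 32.1% at 5 h in the GFP line, and 36.2% and 13.8% and then 40.8% and 33.0% in the Nur77 line. The split at 1 h thus leaned more to rises than that of all genes, in both lines. Genes of the other chromosomes chosen by the same rule had a like lean. At 1 h 14.7% of them rose and 4.3% fell in the GFP line, and 34.1% and 16.7% in the Nur77 line. Without Nur77 replicate 2 at 1 h in the whole fit, 91 of the 218 genes were called in the Nur77 line and 53 in the GFP line at 1 h. The share of all genes called in that fit is not given here.

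Most responses called in the GFP line were called in the same direction in the Nur77 line, both among the 218 genes and among all genes tested. At 1 h 25 genes rose and 8 fell in both lines and none moved in opposite directions. That is 91.7% of the calls of the GFP line and 30.3% of those of the Nur77 line. Of all genes tested 1024 rose and 802 fell in both lines and 3 moved in opposite directions. In all, 2125 genes were called in the GFP line and 5414 in the Nur77 line at 1 h. At 5 h 73 rose and 62 fell in both lines, which is 88.2% and 83.9% of the calls, and 1 gene, Vipas39, rose in the GFP line (0.20) and fell in the Nur77 line (-0.21). Of all genes tested 3167 rose and 3296 fell in both lines at 5 h and 58 moved in opposite directions, with 7635 called in the GFP line and 8130 in the Nur77 line. Across the 218 genes the responses of the lines had a Pearson correlation of 0.792 at 1 h and 0.917 at 5 h, against 0.913 and 0.957 on the other chromosomes. The 4 groups behind each value are separate libraries. Rank correlations (Spearman) had the opposite order, 0.691 and 0.934 for the 218 genes against 0.656 and 0.914 on the other chromosomes. The 73 genes that rose in both lines at 5 h had median rises of 0.482 in the GFP line and 0.535 in the Nur77 line on the log2 scale. Their median difference between the lines was -0.384 at 0 h and -0.331 at 5 h. The 62 that fell in both had medians of -0.488 and -0.578, and the 40 called in neither line had a difference between the lines of -0.357 at 0 h and -0.396 at 5 h.

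The largest rises at 1 h among genes called in both lines were those of Rhob (2.13 in the GFP line and 1.77 in the Nur77 line), Mideas, a histone deacetylase complex gene (1.72 and 1.62), Ifrd1, a transcriptional coregulator gene (1.51 and 1.00), Ccdc71l (1.18 and 1.14) and Fbxo33, a ubiquitin ligase adaptor gene (1.03 and 0.97). Mideas went from 89.6 to 108 CPM at 0 h to 310 to 352 CPM at 1 h in the GFP line. In the Nur77 line it went from 94.3 to 111 CPM to 307, 188, 387 and 357 CPM, with replicate 2 the lowest. Rhob rose from a lower start in the Nur77 line: it reached 107 to 127 CPM at 1 h in the GFP line and 26.8 to 35.5 CPM in the Nur77 line. The falls were smaller, with Zbtb1, a zinc finger repressor gene (-1.11 and -1.08), and Riox1, a ribosomal oxygenase gene (-0.62 and -0.78), the largest, followed by Nek9, Ubr7 and Zfp386.

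At 5 h Dock4, a Rac activator gene (1.49 and 1.70), Hif1a (1.498 and 1.327), Daam1, a formin gene (1.52 and 1.30), Ubxn2a (1.78 and 0.86) and Rhob (1.07 and 1.72) rose the most in both lines. Hif1a rose from 232 to 255 CPM at 0 h to 706, 692, 681 and 688 CPM at 5 h in the GFP line. In the Nur77 line it rose from 214 to 223 CPM to 567, 518, 533 and 583 CPM, so all Nur77 libraries at 5 h lay below all GFP libraries. Nampt, named above, rose by 1.16 and 1.48 (edgeR's quasi-likelihood test, adjusted p = 2.21e-09 and 2.98e-11). The deepest falls were those of Cdca7l (-1.48 and -1.73), Lpin1, encoding a phosphatidate phosphatase of lipid synthesis (-1.96 and -1.08), Sgpp1, a sphingosine-1-phosphate phosphatase gene (-1.41 and -1.59), Siva1, an apoptosis gene (-1.10 and -1.52), and Sdc1, the syndecan 1 gene (-0.95 and -1.56). Cdca7l fell from 154 to 160 CPM to 54.9 to 58.0 CPM in the GFP line and from 114 to 122 CPM to 33.0 to 38.0 CPM in the Nur77 line.

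**Figure D5:**
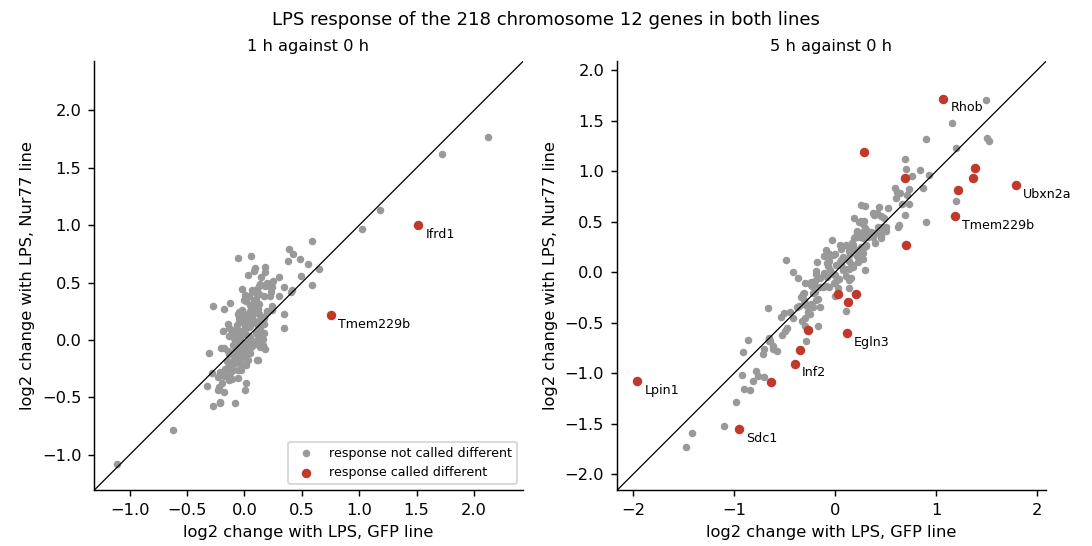
Log2 change with LPS in the Nur77 line against that in the GFP line for the 218 genes at 1 h and 5 h; the line marks equal responses and larger coloured points are genes whose responses were called different. Most points follow the line, more closely at 5 h (r = 0.917) than at 1 h (r = 0.792), and 2 and 19 genes were called different.

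Whether the LPS response differed between the lines was tested directly, as an interaction. A lower response here is a lower log2 change in the Nur77 line, such as a smaller rise or a deeper fall. A higher response is the reverse. At 1 h 2 of the 218 genes were called (0.917%), both with a lower response in the Nur77 line, where 1.13% of all genes tested were called (0.516% lower and 0.615% higher). At 5 h 19 were called, 15 lower and 4 higher (8.72%), where 7.88% of all genes were called (5.12% lower and 2.75% higher). These shares were near those of all genes. The median absolute difference was 0.144 at 1 h and 0.123 at 5 h on the log2 scale. The call at 1 h depended on single libraries: it was 39 genes without Nur77 1 h replicate 1, 12 without Nur77 1 h replicate 4, 5 without GFP 0 h replicate 3, and 3 without Nur77 1 h replicate 2 in the whole fit. At 5 h it was 34 genes without Nur77 1 h replicate 2, a library that is not part of that comparison but shares its estimate of the spread. Shares of all genes called in the fits without a library are not given here. Those counts are therefore not read as a result about the 218 genes.

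At 1 h Ifrd1 rose less in the Nur77 line (difference -0.516, SE 0.08, edgeR's quasi-likelihood test, adjusted p = 0.00106). It went from 248 to 295 CPM to 746 to 773 CPM in the GFP line and from 171 to 190 CPM to 331 to 399 CPM in the Nur77 line. Tmem229b, a transmembrane protein gene, also rose less (-0.537, adjusted p = 0.00571 in the same edgeR test). At 5 h Ubxn2a, a cofactor gene of the p97 ATPase, had the smallest adjusted p (-0.926, SE 0.09, adjusted p = 7.26e-08 in edgeR). Its lines were close at 0 h, at 59.1, 61.9, 59.6 and 58.1 CPM in GFP libraries against 54.5, 51.3, 55.1 and 51.6 CPM in Nur77 libraries. After 5 h they stood at 204, 202, 209 and 206 CPM and 99.4, 94.7, 92.7 and 98.4 CPM. The lines stood furthest apart for this gene at 5 h, with log2 fold changes between the lines of -0.17, -0.15 and -1.09. Without Nur77 replicate 2 the value at 1 h was still -0.15 but no longer called.

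Among the other genes called at 5 h, Inf2, a formin gene, fell by 0.40 in the GFP line and by 0.90 in the Nur77 line (difference -0.505, adjusted p = 7.76e-05 in edgeR). Adam17 rose by 1.22 and 0.82 (difference -0.402, adjusted p = 0.000318 in edgeR). At 0 h it had 341 to 386 CPM in GFP libraries against 400.0 to 414 CPM in Nur77 libraries, and at 5 h 819 to 884 CPM against 691 to 728 CPM. The order of the lines for this gene was therefore the opposite at 0 and 5 h. Differences above 0 included those of Rhob (0.65) and Ddx24 (0.239), an RNA helicase gene, which rose more in the Nur77 line. Lpin1 (0.882) fell less there. Lpin1 was at 50.0 to 61.4 CPM and 25.6 to 32.2 CPM at 0 h in the GFP and Nur77 lines, and at 13.5 to 15.9 CPM and 11.4 to 14.8 CPM at 5 h, where the groups overlapped. The log2 fold change between the lines went from -1.06 at 0 h to -0.18 at 5 h, with -1.05 at 1 h, so the gene lay below the common shift at 0 and 1 h and above it at 5 h.

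Genes on either side of the 30 CPM minimum were as follows. Just inside it lay Sdc1 (30.01 CPM), Ccdc85c (30.11 CPM) and Gm20498 (30.4 CPM), with log2 fold changes at 0 h of -0.83, 0.14 and -0.50. Gm20498 overlaps Cox16 and Synj2bp on the assembly, and reads may be shared. Just outside lay Ankmy2 (29.1 CPM, -0.344, -0.344 and -0.257), Itpk1 (29.1 CPM, -1.15, -1.30 and -1.83) and Id2 (29.4 CPM, -0.141, 0.261 and -1.24), an inhibitor gene of helix-loop-helix transcription factors. The 188 genes of the chromosome tested at lower levels had medians of -0.428, -0.54 and -0.559, with 101, 113 and 115 called lower.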

How the data were processed

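RNA of 24 libraries was sequenced after preparation with a KAPA mRNA kit, per the labels' protocols. Per the submitters' processing notes, CASAVA 1.8.2 and HISAT2 2.1.0 were used with build mm10. The sources used here do not name the counting tool, the annotation or whether strand was used. The authors deposited a table of estimated counts for 42361 RefSeq transcripts, not normalized. Isoforms repeat nearly the same reads, so the transcript with the highest mean stood for its gene. Symbols and positions came from the RefSeq gene table of GRCm38.p6 (42203 transcripts) and GENCODE (65); 93 transcripts, with 0.496% of the counts, kept their own identifiers.

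Counts were rounded, filtered with filterByExpr (12198 genes left), scaled by TMM (factors 0.896 to 1.14) and fitted with 6 group means over all 24 libraries (18 residual degrees of freedom) with edgeR 4.0.16 (R 4.3.3; glmQLFit with robust estimation, glmQLFTest). Adjustment was by the Benjamini-Hochberg method over all genes. The steps were tested on simulated data. Standard errors are the absolute log2 fold change over the square root of F. Medians per library used log2(CPM + 0.5).

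The chromosome, the members, the lists and the alternatives were chosen with earlier results of these data known. Named were the 5 lowest and 5 highest members, those at least 1 from the median at all times, the 2 most abundant of each list, the 5 largest rises and falls with LPS, the members with the smallest p for a different response, the genes around the CPM minimum and the ends of the chromosome; further genes of a list were chosen after their values were seen. Some genes that this rule would name are not reported here. The alternatives were the DESeq2 1.42.0 test, its size factors, TMM from genes outside chromosome 12, no filter on low counts, at least 1 CPM in at least 4 libraries, only the groups compared, a replicate block, each library left out, the mean over transcripts, other CPM minima and the 19 genes put back; leaving out Nur77 1 h replicate 2 from every comparison was chosen after seeing the data.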

Additional observations from a re-analysis of the deposited data

Results flagged for a closer look

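For 3 named genes 1 of the 4 libraries of a group was flagged as far from the others: Hdac9 at 16.8 CPM in GFP 0 h replicate 1, Lgmn at 200 CPM in Nur77 1 h replicate 2 and Egln3 at 42.1 CPM in Nur77 1 h replicate 2. Chance alone flags about 1 in 20 groups. For Egln3 the other 3 libraries were at 27.6 to 29.4 CPM, and for Hdac9 at 23.7 to 25 CPM. Other named genes had a library apart without a flag: Nur77 1 h replicate 2 was at 657 CPM for Pdia6 and 87.6 CPM for Daam1. The other libraries of that group were at 477 to 491 CPM for Pdia6 and 34.7 to 45.7 CPM for Daam1.

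The LPS response differed between the lines by the interaction test of edgeR for 2 genes at 1 h, Ifrd1 (-0.516) and Tmem229b (-0.537), and for 19 genes at 5 h. Rises at 5 h were smaller in the Nur77 line for Ubxn2a (-0.926), Tmem229b (-0.631), Rin3 (-0.432), Susd6 (-0.428), Adam17 (-0.402) and Sav1 (-0.355). Falls were deeper there for Sdc1 (-0.608), Inf2 (-0.505), Dglucy (-0.461), Entpd5 (-0.423) and Gstz1 (-0.303). Egln3 (-0.714), Kcnk13 (-0.42) and Prkch (-0.248) were called lower with LPS only in the Nur77 line. Vipas39 (-0.415) rose in the GFP line and fell in the Nur77 line. Lpin1 (0.882) fell less in the Nur77 line, and Rhob (0.65) and Ddx24 (0.239) were among those that rose more.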

How the results depend on the processing

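With a minimum of 100 CPM there were 95 members, of which 70, 56 and 66 were lower and 1, 3 and 2 higher in the Nur77 line at 0, 1 and 5 h. The medians were then -0.384 at 0 h and -0.346 at 5 h, the LPS calls 14 and 60 in the GFP line and 52 and 70 in the Nur77 line, and the different responses at 5 h 8. With a minimum of 10 CPM there were 301 members, and the medians were -0.419 at 1 h and -0.452 at 5 h. These counts move with the number of members. In fits of only the groups compared, 2 members were higher at 0 h and 8 at 5 h, the median at 0 h was -0.429, 72 members were called with LPS in the Nur77 line at 1 h, and 1 and 44 had a different response at 1 and 5 h. DESeq2 called 8 different responses at 1 h. Without Nur77 1 h replicate 2 in every comparison, 34 members had a different response at 5 h. Shares of all genes called in these fits are not given here, and the cause of these moves was not tested.

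Leaving out 1 library of the groups compared at a time gave 157 to 166, 139 to 157 and 150 to 157 members lower at 0, 1 and 5 h, and 1 to 4, 3 to 11 and 4 to 6 higher. The medians ran from -0.424 to -0.403, from -0.394 to -0.355 and from -0.435 to -0.407. LPS calls ran from 26 to 41 and 141 to 153 in the GFP line and from 91 to 128 and 154 to 159 in the Nur77 line at 1 and 5 h. Different responses ran from 2 to 39 at 1 h and from 15 to 19 at 5 h. Shares of all genes called in these fits are not given here. Nur77 1 h replicate 2 is in neither the GFP comparisons nor those at 0 and 5 h, and these ranges leave out the fits without it there, which gave 53 calls with LPS in the GFP line at 1 h and 34 different responses at 5 h.

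Among 48 named genes, 2207 of 2304 alternative values kept their direction and side of the threshold, 31 gained and 52 lost the call, and 14 changed sign, 4 of them at 0 h and the others at 1 h without Nur77 replicate 2. Over the fits without 1 library, the values at 1 h ran from -0.0995 to 0.177 for Hif1a, from -0.036 to 0.123 for Pdia6, from -0.225 to 0.278 for Daam1, from -0.201 to 0.104 for Mideas and from -0.248 to 0.0181 for Siva1. The end of each range on the other side of 0 was the value without Nur77 replicate 2. At 0 h the values of Hdac9 ran from -0.0464 (without GFP replicate 1) to 0.109, with -0.00806 without Nur77 replicate 2. Those of Mideas ran from -0.0304 (without Nur77 replicate 1) to 0.0797, with -0.0116 without GFP replicate 2.

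With the replicate number as a block, 162, 142 and 159 members were lower at 0, 1 and 5 h, and no count moved by over 1.5 times. The numbers share no stated source: over 12 pairs of same-numbered libraries of the lines, 4 at each time, the deviations correlated from -0.479 to 0.491, with 5 over 0.1. The values at 0 h were 0.491, 0.49, 0.0223 and 0.4. The 4 libraries per group and the single line per construct limit the precision.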

Other observations

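The 19 genes of chromosome 12 that were left out by symbol had medians of -0.361, -0.45 and -0.439 between the lines at 0, 1 and 5 h, with 15, 16 and 17 called lower. Dlst, a subunit gene of the oxoglutarate dehydrogenase complex, had log2 fold changes of -0.629, -0.605 and -0.527. The ribosomal protein gene Rps7 had -0.403, -0.467 and -0.372 and Rps29 -0.587, -0.734 and -0.566. The proteasome genes Psma3 and Psmc1 had -0.361, -0.251 and -0.439, and -0.395, -0.155 and -0.216. Odc1, the rate-limiting enzyme gene of polyamine synthesis, had 0.511, 0.832 and 0.428. Nfkbia, encoding an inhibitor of NF-kB, was at 0.732 before LPS and at -0.554 and -0.575 after it. These genes were chosen after their values were seen.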
